A study of Mus musculus with 4 samples.

Results

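Regions of the mouse genome that carried a peak of histone 3 phosphorylated at serine 10 (H3S10ph) in both samples of contracted muscle, and in neither sample of resting muscle, were described from the peak list of each sample. ChIP-seq had been performed on gastrocnemius, a calf muscle, of male C57BL/6 mice aged 5 months with no genetic modification named. The stimulated muscles performed 50 electrically evoked eccentric contractions, in which the muscle is lengthened while active, under xylazine and Zoletil anaesthesia and were frozen immediately afterwards. The unstimulated muscles were the contralateral ones of the same mice, so both groups shared the anaesthesia. For stimulation, the paper describes an incision, wires sutured beside the sciatic nerve and cutting of the common peroneal nerve. It names no such operation on the other leg, so effects of contraction and of this surgery cannot be told apart. There were 2 samples per group, each a pool of 6 mice, so that the spread between samples is that between pools. Peaks of the 4 lists that shared at least 1 bp were merged into 91019 regions, and 306 of them (0.336%) held a peak of both stimulated lists and of neither unstimulated list. These 306 regions were chosen by the presence and absence of peaks, so their number, their peak values and the genes they lie on are given as a description, without a test. The mirrored choice, a peak in both unstimulated lists and in neither stimulated list, gave 166 regions (0.182%), of which 162 lay on the assembled chromosomes.

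H3S10ph in interphase nuclei is placed by kinases such as MSK1 and MSK2 downstream of the ERK and p38 MAP kinases, and it appears within minutes on genes that respond to stress and growth signals. The mark favours acetylation of the same histone tail and the binding of 14-3-3 proteins, and it goes with the release of transcription at immediate early genes, which need no new protein for their induction. In condensed chromosomes of dividing cells the same residue is phosphorylated by Aurora B. In skeletal muscle, MAP kinases are activated by contraction, and genes of the contractile apparatus are transcribed at very high rates in the myonuclei.

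The lists differed in length. Stimulated replicates held 10901 and 40683 peaks, and unstimulated replicates held 9094 and 32740 peaks. Unstimulated replicate 1 stood apart from the other 3 samples, with 522 peaks on chromosome X against 16 to 19 in each of the others. Without it 323 regions met the rule, and they lay on 19 genes of the muscle lists described further on, as the 306 regions did. The lists give a fold enrichment over background and the −log10 of a p-value for each peak, and no read counts, so depth is unknown. They hold no RNA, so the tissue could not be checked by the level of its marker genes.

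Most of these regions were weak peaks. The highest fold enrichment of a peak within each region had a median of 2.27 in stimulated replicate 1 and 2.1 in replicate 2. The medians over all peaks of these lists were 2.27 and 2.09. A −log10 p of at least 3 was reached in both lists by 6 regions and in at least 1 list by 63, and no region had a q-value below 0.05 in either list. Across the 306 regions the fold enrichment in one list was not related to that in the other (Spearman rho of 0.01, Pearson r of 0.14, a description over regions that share their libraries). The exceptions that were high in both lists stand at the upper right of the plot of fold enrichment in both lists.

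**Figure D1:**
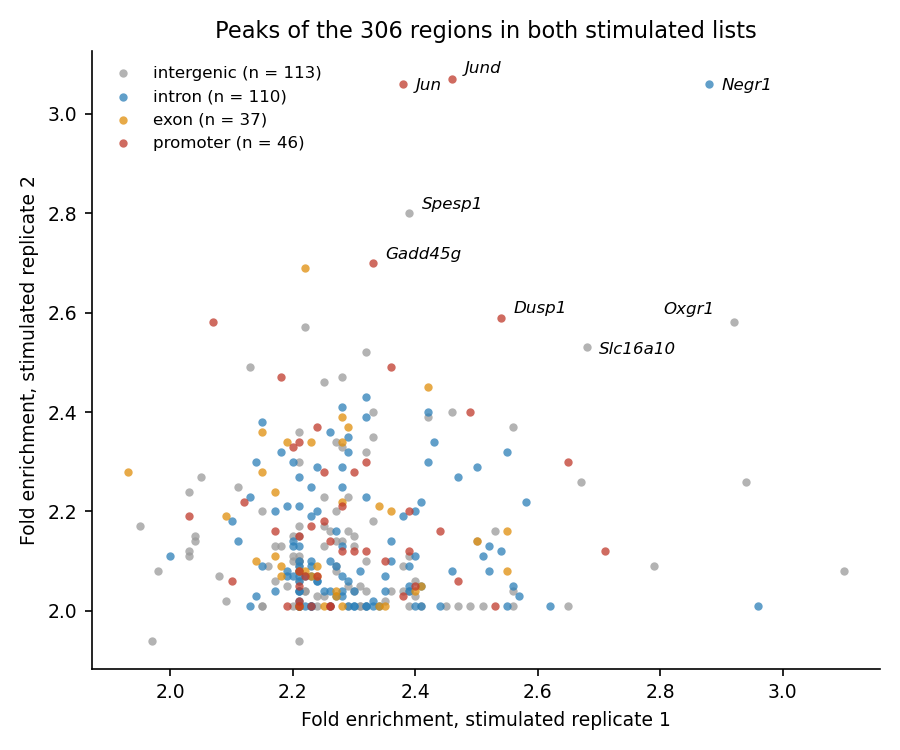
Fold enrichment of the peak of each region in stimulated replicate 1 (x axis) and replicate 2 (y axis), 1 point per region, coloured by position. The bulk lies near the medians of 2.27 and 2.1, and regions at Negr1, Jun, Jund, Dusp1, Gadd45g, Oxgr1, Slc16a10 and Spesp1 are labelled by the gene they touch or lie nearest to.

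The choice of these regions depends on small distances. The peaks of both stimulated samples shared a median of 246 bp, and as little as 9 bp in regions near Ndufa10 and Gm5591. In 84 regions they overlapped by at least 50% of each peak, and in 112 regions 1 peak lay inside the other. The nearest unstimulated peak was 15796 bp away in the median, but it lay within 1000 bp of 23 regions and only 47 bp from the region on Tnnt3. Just outside the rule, stimulated peaks on Pkp1 were adjacent, with a gap of 0 bp, and a region on Ttn was left out for an unstimulated peak that shared 73 bp with the stimulated peaks. In all, 453 regions held a peak of both stimulated lists, and 147 of these also held an unstimulated peak, 16 of replicate 1 only, 57 of replicate 2 only and 74 of both. Genes whose regions were left out for a peak of unstimulated replicate 2 included Fos, Egr1, Tcap, Acta1, Ankrd23 and Xirp1. Regions on Myh4, Trim63, Mylk4, Atp2a1 and Ttn were left out in the same way, although other regions on these genes were kept.

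Sequences at 9 places within these regions are shown because they hold, on genes of the early response or of muscle and on Ywhaz, a chromatin gene of the lists, a binding motif of a transcription factor that acts in contraction signalling. They were read from GRCm38, the assembly of mm10, on the strand of the gene, 5′ to 3′, with the motif in capitals. The first group holds the cAMP response element TGACGTCA, the motif of CREB and ATF factors. On Dusp1 (chr17:26508558-26508665, minus strand) it begins 96 bp upstream of the start site, on Ywhaz (chr15:36793653-36793682, minus strand) 152 bp upstream of the nearest of several start sites and within an untranslated exon of a longer transcript, and on Ttn (chr2:76810438-76810545, minus strand) within coding sequence.
Dusp1: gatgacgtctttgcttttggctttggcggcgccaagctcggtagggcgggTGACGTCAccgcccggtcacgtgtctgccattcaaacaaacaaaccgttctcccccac
Ywhaz: atagcagcgttTGACGTCAtcgtgcgtgtg
Ttn: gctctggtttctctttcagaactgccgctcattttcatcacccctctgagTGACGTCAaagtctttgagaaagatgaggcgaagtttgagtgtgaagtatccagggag

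The second group holds the AP-1 site, TGACTCA or TGAGTCA, the motif of Fos and Jun proteins. On Gadd45g (chr13:51848251-51848279, plus strand) and Ier2 (chr8:84661633-84661661, minus strand) it lies in an untranslated exon, 1518 and 1202 bp downstream of the start site. On Trim63 (chr4:134321526-134321632, plus strand) and Tnnt3 (chr7:142512860-142512966, plus strand) it is intronic.
Gadd45g: cgaggcaggtgTGACTCAgcaagcagcct
Ier2: gggaagtgactTGAGTCAcctcgccccca
Trim63: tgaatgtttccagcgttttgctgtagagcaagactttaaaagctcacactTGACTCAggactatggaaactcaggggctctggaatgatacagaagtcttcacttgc
Tnnt3: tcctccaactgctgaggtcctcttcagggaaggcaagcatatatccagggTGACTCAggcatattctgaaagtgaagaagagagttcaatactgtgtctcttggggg

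The last pair holds an intronic MEF2 site, 745 bp upstream of an internal start site of Trim63 (chr4:134319193-134319302, plus strand), and an intronic CArG box, the motif of SRF, on Pdk4 (chr6:5486795-5486904, minus strand).
Trim63: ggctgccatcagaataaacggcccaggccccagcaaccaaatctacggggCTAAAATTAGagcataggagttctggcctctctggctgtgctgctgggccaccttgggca
Pdk4: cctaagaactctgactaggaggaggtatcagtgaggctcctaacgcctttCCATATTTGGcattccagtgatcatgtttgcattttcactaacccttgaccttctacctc

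Motifs were counted on both strands in the central 300 bp of each region, and in the RefSeq promoters of the same assembly and length. The motifs shown above were taken from anywhere in a region. All but that of Tnnt3 lie outside the central 300 bp, so they are not among those counted here. The AP-1 site stood in 7.84% of the 306 regions, in 5.08% of all merged regions and in 5.20% of promoters. The CArG box stood in 0.654% of these regions, 1.69% of all merged regions and 1.63% of promoters, and TGACGTCA in 0.327%, 0.185% and 1.79%. The MEF2 site stood in 0.327%, 0.648% and 0.558%. A match is a description of the sequence and not a bound site.

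By position, regions at promoters were those that reached to within 1000 bp of a transcription start site of a protein-coding gene, internal start sites included. The rest were divided into those that overlapped an exon, those within an intron and intergenic ones. Promoters held 46 regions (15.0%, Wilson 95% interval 11.5 to 19.5, counting error only), exons 37 (12.1%), introns 110 (35.9%) and intergenic sequence 113 (36.9%). Promoters make up 3.59% of the bases of the genome and exons outside them 2.57%. The mirrored regions of resting muscle had 3.09% in promoters, 8.64% in exons, 29.0% in introns and 59.3% in intergenic sequence. Regions of both stimulated lists that also held an unstimulated peak had 11.2% in promoters, 20.3% in exons and 58.7% in intergenic sequence, and all merged regions had 6.88%, 7.13% and 49.4%. Over all widths together, the promoter share was thus highest in the 306 regions among these sets, and the exon share was not. The sets were not matched for width, and promoter shares by width are given below.

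Regions found in a list of 1 sample only, which are other regions than the 306, kept the order of the groups for promoters. Their promoter share was 6.04% and 9.50% in stimulated replicates 1 and 2 and 3.31% and 4.66% in unstimulated replicates 1 and 2, so both stimulated values were above both unstimulated ones. Their exon share was 6.05% and 8.07% against 5.94% and 6.29%, which overlap. With 2 samples against 2 no exact test can go below a p of 0.333. Base composition moved with position, with a median GC content of 46.5% in the 306 regions, 38.9% in the mirrored regions and 43.7% in all merged regions. Its part in the result was not tested.

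**Figure D2:**
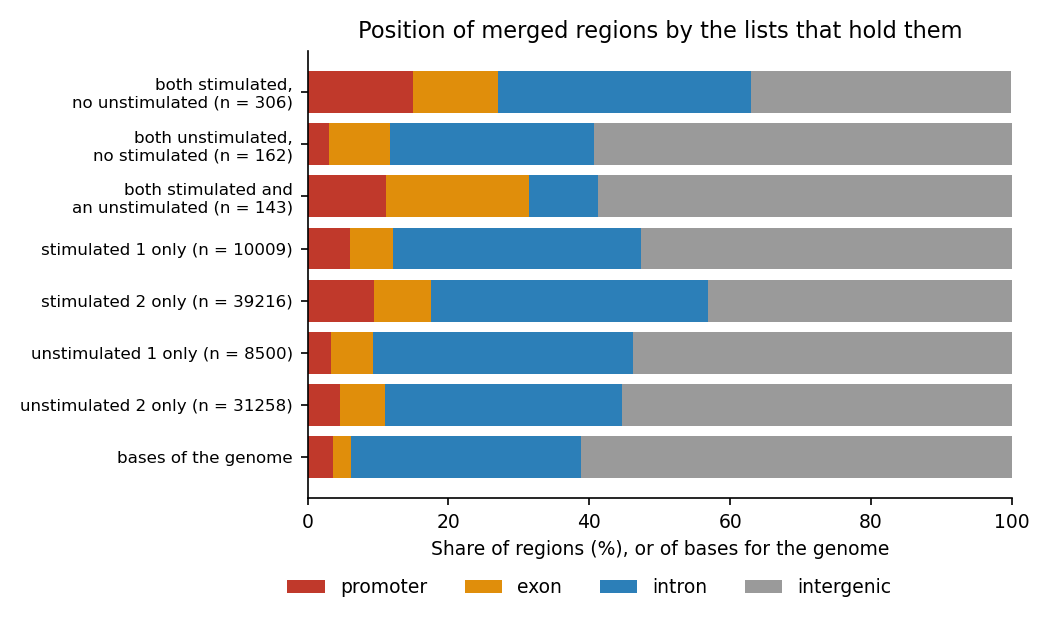
Share of merged regions (x axis, in %) that overlap a promoter, exon, intron or no protein-coding gene, for regions held by different combinations of lists (y axis), with the bases of the genome in the last bar. The first bar, the 306 regions, has 15.0% in promoters, against 3.09% in the second, the mirrored regions.

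Of the 46 promoter regions, 25 covered a start site, 18 began downstream of the nearest one and 3 ended upstream of it. Over the 202 pairs of a region and a gene body that it overlapped, the centre of the region lay in the first of 5 equal parts of the gene in 52 pairs, in the next parts in 35, 32 and 40, and in the last in 43, where a centre beyond an end of the gene was counted with that end. Coding sequence was touched in 63 pairs (31.2%), against 20.5% of pairs in the mirrored regions and 12.8% and 16.6% for regions of stimulated replicate 1 or 2 only. The genes hit had a median length of 87496 bp over these pairs, against 115321 bp in the mirrored regions, 124640 and 104027 bp for regions of stimulated replicate 1 or 2 only, and 17403 bp over all protein-coding genes.

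The regions were 252 to 5533 bp wide, with a median of 962 bp, and covered 338 kb of the genome together. Mirrored regions had nearly the same median, 966 bp, and regions of a stimulated list alone had 343 and 450 bp. Wide peaks overlap more often, so width follows in part from the choice. Promoter regions were the widest, with a median of 1368 bp against 1195 bp in exons, 942 bp in introns and 889 bp between genes. Promoters were overlapped by 42.3% of the 26 regions wider than 2000 bp and by 8.33% of the 48 regions narrower than 500 bp. In the mirrored regions the same shares were 10.5% of 19 regions and 0 of 24.

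**Figure D3:**
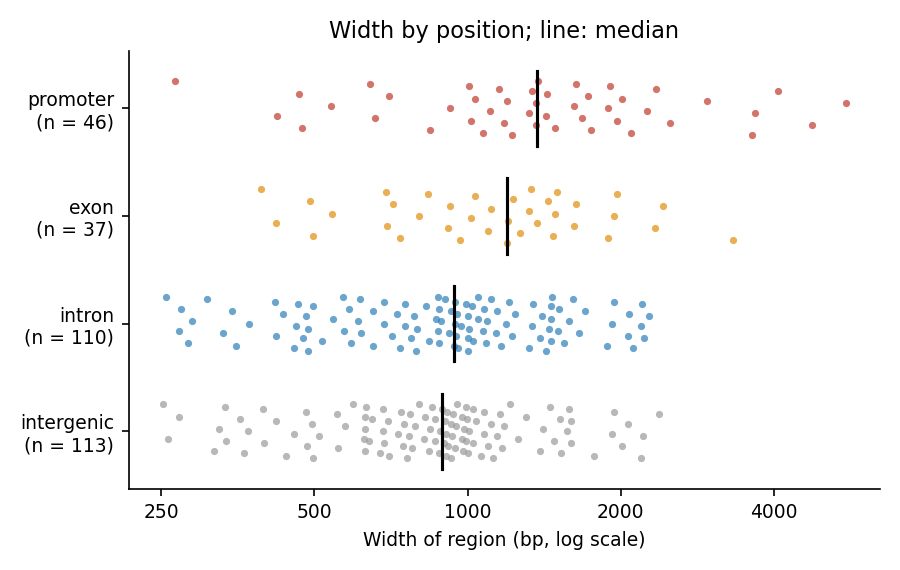
Width of each of the 306 regions in bp (x axis, log scale) by position (y axis), 1 point per region, with the median as a line. The median falls from 1368 bp in promoters to 889 bp in intergenic sequence, and all regions wider than 3329 bp are in promoters.

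The 5 widest regions lay on Nr4a1 (5533 bp), Trim63 (4742 bp), Abra (4077 bp), Jun (3679 bp) and Dusp1 (3618 bp). Nr4a1, Jun and Dusp1 are immediate early genes, and Trim63 and Abra are expressed mainly in striated muscle. Of the 26 regions wider than 2000 bp, 10 lay on a gene of the lists of muscle and early response genes. The narrowest, of 252 to 271 bp, lay in introns of Sox5 and Vav3, in a promoter of Adk, which encodes adenosine kinase, and between genes near Slco6d1, Perp and Tpra1, where Vav3 and Tpra1 shared the width of 271 bp.

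At least 1 of these regions lay on the body or promoter of 196 of 21951 protein-coding genes (0.893%). The mirrored regions lay on 71 genes (0.323%). Genes of 3 lists of the early response to stress and growth signals held a region in 9 of 124 cases (7.26%), and none of them held a mirrored region. Genes of 11 lists of muscle function held a region in 19 of 324 cases (5.86%), and 2 of them, Ryr3 and Trdn, held a mirrored region. The muscle genes are longer than most, with a median of 29542 bp, and the early response genes shorter, with 8298 bp. The lists were drawn up with earlier results of these data known, so the counts do not stand as independent evidence. For the single lists below, 0.893% of all protein-coding genes is the share to compare with. A count of 0 or 1 in such short lists says little.

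Of 65 immediate early genes, 8 held a region: Jun, Jund, Nr4a1, Dusp1, Gadd45g, Ier2, Cebpd and Zfp36l1. In 7 of them, all but Dusp1, no peak of either unstimulated list lay on the gene or within 1000 bp of it. The rule itself allows no unstimulated peak on a region, and the regions cover much of several of these short genes. This absence therefore follows in part from the choice. Of the 19 muscle genes with a region, 3 had no such peak. The 10 regions on genes of the early response lists were in a promoter in 8 cases and in an exon in 2. Promoters include those of internal start sites, and 5 of the 10 regions lay within 1000 bp of the first start site of the gene. At least 50% of the GENCODE gene was covered in 5 cases, among them Jund. The 23 regions on muscle genes covered as much in 1 case, Abra, with a median of 1.89% of the gene, and 3 of them lay within 1000 bp of the first start site.

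Jun and Jund encode subunits of AP-1. On Jun (chr4:95048379-95052057, minus strand) the peak had a fold enrichment of 2.38 in stimulated replicate 1 and 3.06 in replicate 2, and covered 69.6% and 94.8% of the gene. On Jund (chr8:70699284-70701010, plus strand) it had 2.46 and 3.07, and covered 66.0% and 79.9% of the gene. RefSeq starts Jund further upstream, and the region covered 46.3% of that longer gene. Both genes have 1 exon. In both, the region merged over both lists began downstream of the GENCODE start site, by 165 and 335 bp, and ran past the 3′ end. Only the peaks of stimulated replicate 2 passed the 3′ end. In stimulated replicate 2 these peaks were 33rd and 32nd of the list by fold enrichment.

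Nr4a1, which encodes an orphan nuclear receptor induced by exercise, held 2 regions (chr15:101267237-101268659 and chr15:101270182-101275714, plus strand). The fold enrichment was 2.39 and 2.20 in the first, and 2.49 and 2.4 in the second, for stimulated replicates 1 and 2. The second region held internal start sites and the 3′ end of the gene, which only a peak of stimulated replicate 2 covered. Peaks covered 23.6% of the gene in stimulated replicate 1, with 2 peaks, and 51.6% in replicate 2, with 7 peaks. The nearest unstimulated peak was 57330 bp from the first region and 60275 bp from the second.

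Dusp1 encodes a phosphatase that inactivates MAP kinases. Its region (chr17:26505217-26508834, minus strand) had a fold enrichment of 2.54 and 2.59 and ranked 4th of the 306 by the worse of its ranks in both lists. Merged over both lists, it covered 100% of the gene as RefSeq places it, running beyond both of its ends, and 5.74% of the longer GENCODE annotation of 56539 bp. In neither list alone did peaks cover the whole RefSeq gene. A peak of unstimulated replicate 2 lay elsewhere on that longer annotation. Gadd45g, a growth arrest gene that acts on the p38 pathway, was covered for 94.8% of its length in stimulated replicate 1 and 79.7% in replicate 2, with a fold enrichment of 2.33 and 2.70 (chr13:51846772-51849274, plus strand).

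Ier2, a small nuclear protein gene, was covered for 47.2% and 60.5%, with a fold enrichment of 2.30 and 2.28 (chr8:84660010-84662258, minus strand). Cebpd encodes the transcription factor C/EBP-delta, and its region (chr16:15887152-15889501, plus strand), which also touches the neighbouring gene Spidr, covered the start site. Only the peak of stimulated replicate 2 reached that site. The peaks on Cebpd differed between the samples, with 2.24-fold and 2.37-fold enrichment over 10.2% and 59.2% of the gene. Zfp36l1, which encodes an mRNA decay factor, had a fold enrichment of 2.5 and 2.14 on a region that is partly exonic, over 25.7% and 10.1% of the gene.

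Of 27 heat shock and chaperone genes, 1 held a region (3.7%, against 0.893% of all protein-coding genes). Dnajb5, an HSP40 co-chaperone, had a fold enrichment of 2.28 and 2.22 over a mostly exonic region of 922 bp, and a peak of unstimulated replicate 2 with a fold enrichment of 2.1 lay elsewhere on the gene. None of 33 stress kinase genes held a region, which says little at that share over all genes.

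**Figure D4:**
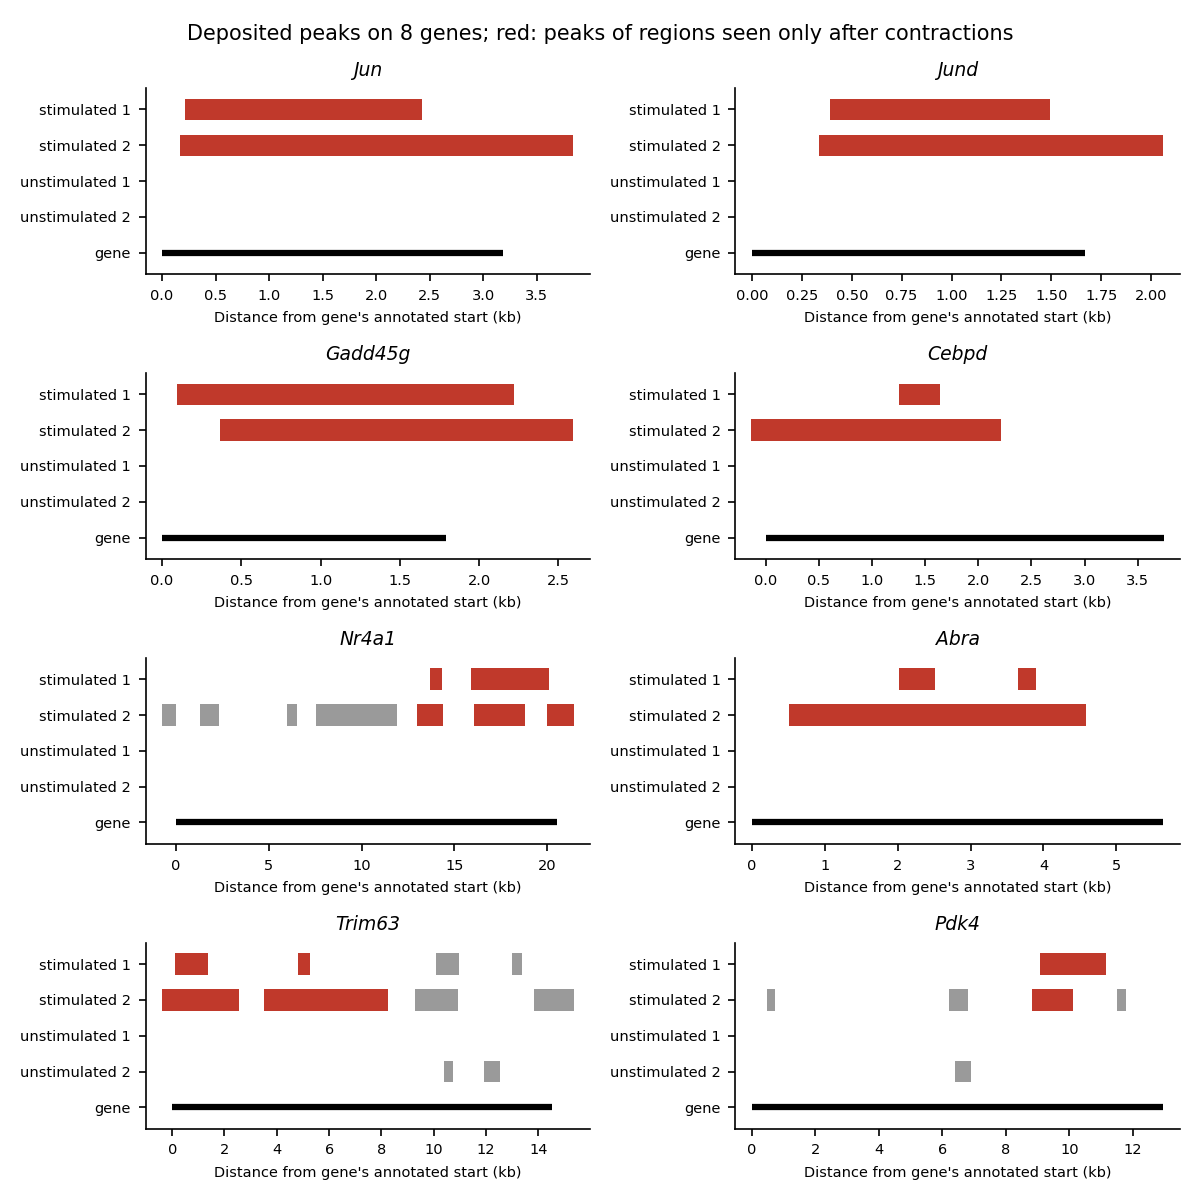
Deposited peaks of the 4 samples (rows) along 8 genes, with the distance from the annotated start of the gene in the direction of transcription (x axis, kb) and the gene as a black bar. Peaks of the regions seen only after contractions are red and other peaks grey. The unstimulated rows are empty for 6 of the 8 genes and hold peaks of replicate 2 on Trim63 and Pdk4. The rule allows no unstimulated peak on the regions, so the empty rows follow in part from the choice.

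Of 26 genes of the thick filament and the M-band, 5 held a region, among them Ttn, Myh4, Mylk4 and Trim63. Ttn encodes titin, the elastic filament that spans the sarcomere, and held 4 regions between 38.1% and 71.0% along the gene, each partly over coding exons. Their fold enrichment ranged from 2.29 to 2.42 in stimulated replicate 1 and from 2.01 to 2.45 in replicate 2. Peaks on Ttn were not limited to contracted muscle, with 23 and 43 peaks after contractions and 8 and 30 at rest, which covered 10.6% and 24.4% against 1.44% and 14.7% of the gene. The unstimulated replicate 2 thus covered more of Ttn than stimulated replicate 1.

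Myh4 encodes the fast IIb myosin heavy chain, the main myosin of this muscle. Its region (chr11:67240376-67241694, plus strand), merged over both lists, lay over an internal start site, with a fold enrichment of 2.47 and 2.06. Peaks, however, covered 32.3% and 61.1% of the gene in stimulated muscles and 5.43% and 43.1% in unstimulated muscles. Myosin heavy chain genes are near copies of each other, and reads that map to several places had been removed, so values on Myh4 are uncertain. Mylk4, a muscle kinase of the myosin light chain kinase family, had 2.32 and 2.43 in an intron. On Mylk4 unstimulated replicate 2 held 11 peaks, more than the 5 and 8 of the stimulated lists.

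Trim63 encodes MuRF1, a ubiquitin ligase of the sarcomere that rises in muscle atrophy. Its regions (chr4:134314718-134317675 and chr4:134318615-134323356, plus strand) had a fold enrichment of 2.36 and 2.49 at the first start site, and of 2.32 and 2.30 over an internal one. At the first start site, the peak of stimulated replicate 2 covered the site and that of replicate 1 began downstream of it. Together they covered 50.3% of the gene. In stimulated replicate 1 peaks covered 20.5% of the gene and in replicate 2 they covered 66.2%. Unstimulated replicate 1 had no peak there and replicate 2 had 2 peaks over 6.52%, in the 3′ part of the gene.

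Of 20 thin filament genes 1 held a region, Tnnt3, which encodes fast troponin T. The region had a fold enrichment of 2.23 and 2.17, but both unstimulated lists had peaks nearby that covered 5.92% and 13.2% of the gene against 4.21% and 9.93% in the stimulated lists. Of 30 Z-disc genes, Ldb3 (2.28 and 2.03) and Synpo2l (2.17 and 2.24) held a region. A peak of unstimulated replicate 1 lay elsewhere on Ldb3, and no unstimulated peak lay on Synpo2l. Of 31 costamere and membrane skeleton genes, Ank1 (2.33 and 2.01) and Sgca (2.22 and 2.07), which encodes alpha-sarcoglycan, held a region. Unstimulated replicate 2 had 3 peaks elsewhere on Ank1, and Sgca had no unstimulated peak.

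Of 42 genes of excitation-contraction coupling and calcium handling, 2 held a region (4.76%, against 0.893% of all protein-coding genes). As many, Ryr3 and Trdn (4.76%, against 0.323% of all protein-coding genes), held a mirrored region of resting muscle. The raw shares were thus equal, but they rest on 2 genes each and the shares over all genes differ. Atp2a1, the calcium pump SERCA1 of fast fibres, had a fold enrichment of 2.24 and 2.07, and peaks covered 8.86% and 22.5% of it in stimulated and 2.43% and 11.3% in unstimulated muscles. Ppp3ca, the catalytic subunit of calcineurin, had 2.26 and 2.36 in an intron of its 5′ part. Unstimulated replicates 1 and 2 had 2 and 4 peaks elsewhere on Ppp3ca, over 0.754% and 1.02% of the gene, against 0.269% and 3.82% in the stimulated lists. None of the 16 genes of the neuromuscular junction held a region.

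Of 36 genes of glycolysis, glycogen and phosphocreatine, 2 held a region (5.56%), against 0.893% of all protein-coding genes. Pdk4 encodes the kinase that shuts pyruvate dehydrogenase when fat is burned, and its region (chr6:5485142-5487480, minus strand) of 2339 bp had a fold enrichment of 2.36 and 2.20, with peaks over 16.3% and 18.7% of the gene in stimulated muscles and over none and 3.84% in unstimulated ones. Slc16a3, the lactate exporter MCT4, had 2.1 and 2.06 in a region over its start site, which only the peak of stimulated replicate 1 covered. A peak of unstimulated replicate 2 near the gene had 2.42. Of 33 genes of oxidative metabolism and its control, 2 held a region (6.06%): Ppard, which encodes the lipid-sensing receptor PPAR-delta, had 2.25 and 2.28 near an internal start site, and Ppargc1b, the coactivator PGC-1beta, had 2.23 and 2.25 in an intron. Unstimulated replicate 2 had 1 peak elsewhere on Ppard and 1 on Ppargc1b.

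Abra, also called STARS, encodes an actin-binding protein that activates SRF through its cofactors, and was the only one of 29 myogenic and fibre type regulators with a region. Stimulated replicate 2 had 1 peak of 2.21-fold enrichment over 72.2% of the gene, and replicate 1 had 2 peaks over 13.4% with 2.28 as the higher value (chr15:41865138-41869214, minus strand). No unstimulated peak lay on Abra, but the rule allows none on the region, which covers 72.2% of the gene. Of 34 genes of growth, insulin and mTOR signalling, Pik3ca held a region (2.18 and 2.09), and of 27 genes of proteolysis and autophagy Nedd4 did (2.28 and 2.34). Unstimulated replicate 1 had 2 peaks elsewhere on Pik3ca, and unstimulated replicate 2 had 1 on Nedd4.

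Lists of general cell functions held a region in 1 of 130 genes (0.769%), close to the 0.893% of all protein-coding genes. Ywhaz, which encodes a 14-3-3 protein, was the only one of 31 chromatin and histone genes with a region, with a fold enrichment of 2.20 and 2.33 and no unstimulated peak. None of 76 ribosomal protein genes, 23 clock genes or 33 marker genes of endothelial cells, macrophages, fibroblasts, satellite cells, smooth muscle, Schwann cells, adipocytes and red cells held a region. A gene without a region may lack overlapping peaks of both stimulated lists, or may hold an unstimulated peak at the same place. The absence of regions therefore does not measure how many such cells were present.

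The regions with the best ranks in both lists were of mixed kind. Of the 25 with the best worse rank, 8 lay in promoters, 1 in an exon, 6 in introns and 10 between genes, and 7 consisted of repeats for more than 50% of their bases. Dusp1, Jund, Nr4a1, Jun, Trim63 (both regions), Gadd45g and Ttn were the listed genes among them. The first in rank lay in an intron of Negr1, a neuronal cell adhesion gene, was 282 bp wide, consisted entirely of repeats (100%) and had a fold enrichment of 2.88 and 3.06. Those on Lrmda (2.55 and 2.32, 100% repeats) and on Gm21704 of chromosome Y (2.42 and 2.30, 94.4% repeats) were repeats as well.

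Among the others of these 25, the region between genes nearest to Oxgr1 had a fold enrichment of 2.92 and 2.58, and that 12990 bp upstream of Slc16a10, which encodes an aromatic amino acid transporter, had 2.68 and 2.53. Ndrg2, a gene of the NDRG family that is expressed in muscle, had 2.65 and 2.30 in a region over a start site. The remaining ones lay in introns of Slc41a3, Dcc and Fignl1, or between genes nearest to Thy1, Tenm4, Klf5, Spesp1, Ube2e3, A1bg, Hcar2 and Adgrl3, with a fold enrichment of 2.32 to 2.56 in replicate 1 and 2.32 to 2.80 in replicate 2.

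The regions were spread over all 19 autosomes, at 12.4 per 100 Mb, from 6.11 on chromosome 16 to 18.5 on chromosome 4. Their number went with the number of protein-coding genes (Spearman rho of 0.68 over 19 autosomes) and with chromosome length (0.60), given as a description. Chromosome X held none and chromosome Y held 1. Chromosome X had only 540 merged regions in all, nearly all from unstimulated replicate 1.

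**Figure D5:**
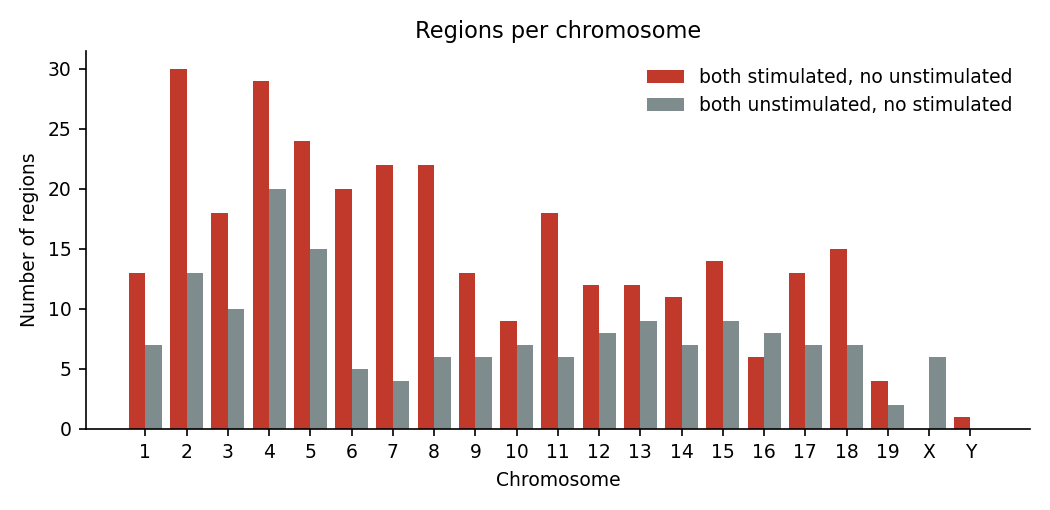
Number of regions (y axis) on each chromosome (x axis) for the 306 regions of both stimulated lists and for the mirrored regions of both unstimulated lists. Chromosomes 2 and 4 hold 30 and 29 of the 306, and chromosome X holds none.

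Within 100 kb of another were 23 regions (7.52%, Wilson 95% interval 5.06 to 11) in 10 clusters, against 26 mirrored regions (15.7%) in 9 clusters. Without unstimulated replicate 2 the share was 14.3%. Within 1000 kb of another lay 33.3% of the 306 regions and 28.3% of the mirrored ones, which turned the order. Such shares rise with the number of regions, here 306 against 166, and the sets were not matched for it. The median spacing was 4.02 Mb in the 306 regions and 7.51 Mb in the mirrored ones. Clusters of 1 gene were the 4 regions on Ttn and the pairs on Trim63 and Nr4a1. Pairs of neighbours were Dusp1 with Ergic1, whose product acts in transport between endoplasmic reticulum and Golgi, Gadd45g with Sema4d, which encodes a semaphorin, Dnajb5 with Fam214b, and Mylk4 with a place between genes nearest to Wrnip1. The region on Ergic1 had 2.96 and 2.01, and that on Sema4d had 2.19 and 2.21. A pair lay between genes nearest to Postn, which encodes periostin. The clusters of Chia1, Chil3 and Chil4 and of Mup5 stand in gene families with near-identical copies, and are uncertain for that reason.

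Peaks near these regions were compared between the groups. The rule did not use these peaks themselves, but it chose the places by stimulated and unstimulated peaks. Other peaks on Trim63, Nr4a1 and Ttn lie in these flanks, so the comparison is not independent of the choice and no conclusion is drawn from it. Of the peaks outside the regions, those within 50 kb of a region were 2.25% and 2.28% after contractions and 2.16% and 1.70% at rest, where the flanks made up 1.12% of the genome. Both stimulated values were above both unstimulated ones. The means were 2.26 ± 0.0225% (SD, n = 2) and 1.93 ± 0.323% (SD, n = 2), a ratio of 1.17, and the two-sided exact permutation test gave p = 0.333, the smallest it allows with 2 samples against 2. Most of the difference came from unstimulated replicate 2, and without that sample the ratio was 1.05.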

How the data were processed

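H3S10ph ChIP-seq was analysed from 4 samples of mouse gastrocnemius. Per the labels and the methods, the authors mapped reads to mm10 (BWA 7.12 and SAMtools 2.4.0 in the processing notes), removed reads that map to several places, down-sampled replicates and called broad peaks with MACS2 2.1.1 against input DNA, per sample. The methods give a p cutoff of 0.001, but the deposited lists reach a −log10 p of about 2. The deposited values used were the fold enrichment (a ratio over background) and the −log10 p-value and q-value of each peak, and the score column was not used. Depth is unknown. Fold values were ranked within a list only.

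Peaks were merged and annotated with Python 3.11.15 (with pysam 0.24.0, scipy 1.17.1, numpy 2.4.6, pandas 2.3.3 and matplotlib 3.10.9) and GENCODE release M21. The merge and the rule were tested on simulated peaks. The files' coordinates were checked against GRCm38: 165 of 165 RefSeq promoters read again by coordinates were identical, and 0 of 93298 peaks ended past a chromosome. Of 609 listed symbols, 3 were not matched. The regions, the 25 gene lists and the motifs were chosen with earlier results of these data known. Named are listed genes with a region, genes at the 25 best ranks (the worse rank of both lists), genes of clusters within 100 kb, those at the 5 widest and 5 narrowest regions, and genes covered from the start site over at least 50%; others are said to be chosen after their values were seen. Alternatives were thresholds on p, equal list lengths, reciprocal overlap, merging, the absence rule, windows, annotation, left-out samples and a replicate block. Same-numbered samples share only a number in the labels. Results for some listed genes are not reported here.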

Additional observations from a re-analysis of the deposited data

How the results depend on the processing

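The number of regions depended on how peaks were chosen. From 306 it fell to 63 and 16 with peaks of a −log10 p of at least 2.5 and 3, to 85 with lists of equal length and to 84 with a reciprocal overlap of 50%, and it rose to 651 with peaks within 1000 bp merged. It ranged from 323 to 39532 when 1 sample was left out, the highest without stimulated replicate 1, and was 10320 without stimulated replicate 2. Muscle genes with a region, 19 in all, numbered 9 and 3 at these thresholds, 12 with lists of equal length, 4 with reciprocal overlap and 33 with merging, and 19 to 236 with 1 sample left out. Of the 29 listed genes, 14 were kept at 2.5 and 4 at 3 (Dusp1, Jun, Jund and Ttn), where Egr1, Fos and Tcap were among those added. The promoter share of 15.0% became 22.2% and 43.8% at these thresholds, 21.2% with lists of equal length and 29.1% with a promoter of 5000 bp, and was 6.26% to 15.4% with 1 sample left out. The share on gene bodies, 62.7%, became 68.8% at 3, 68.2% with lists of equal length and 68.3% with all genes, and was 47.2% to 61.8% with 1 sample left out. The median width of 962 bp became 2978 bp at 3, 696 bp with reciprocal overlap and 1325 bp with merging, and was 347 to 1002 bp with 1 sample left out. The clustered share of 7.52% became 0.0% at 3, 3.59% within 50 kb and 16.2% when regions were left out only for a peak in both unstimulated lists, and was 9.91% to 95% with 1 sample left out, 14.3% without unstimulated replicate 2. Without a stimulated sample the rule rests on 1 list, which sets the far ends of these ranges. The flank ratio of 1.17 was 1.09 with 20 kb, 1.07 at 2.5, 1.05 to 1.33 with 1 sample left out and 1.18 with the replicate block, and its p cannot pass a threshold of 0.05 under any of them. In all, 36 values under these alternatives stayed within 1.5 times the count, the interval or the spread, and 36 moved further. With 2 samples per group and weak peaks, absence from a list means only that no peak was called.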

Other observations

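Some genes outside the lists, chosen after their values were seen, held regions that the report did not name. Fhod3, which encodes a formin of the cardiac and skeletal sarcomere, held 2 regions in introns, with a fold enrichment of 2.21 in both in stimulated replicate 1 and of 2.01 and 2.07 in replicate 2. Mical2, which encodes an actin-oxidising enzyme that acts on SRF signalling, held an intronic region with 2.25 and 2.04. Gab1, an adaptor of growth factor receptors, held a promoter region of 2015 bp with 2.25 and 2.18, and Tob1, an antiproliferative gene, held 1 of 1014 bp with 2.07 and 2.58. Gse1 held 2 intronic regions, which also lie on the overlapping readthrough gene Gm20388, so they cannot be told apart between these annotations.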
